A study of Rattus norvegicus with 6 samples.

Results

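The genes of the proteasome subunits were described in RBL-2H3 cells, a rat basophilic leukemia line labelled wild type, in 3 control libraries and 3 libraries of cells treated for 6 h with 10 µM PIO, which the title of the series calls a PPARγ agonist. Members were all rows of the deposited table whose symbol was Psma, Psmb, Psmc, Psmd, Psme or Psmf followed by a number, which gave 44 genes of 22601, with no duplicated symbol. The question was how the core, the cap, the activators and the immunoproteasome subunits stood in the 2 groups, given that most of these transcripts are short. The labels record neither a vehicle nor a time for the controls, and differences in these cannot be told apart from those due to the compound. The labels do not say whether replicates were separate cultures, so the spread that p-values rest on may be technical, between libraries alone.

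The proteasome degrades proteins that have been tagged with ubiquitin. Its barrel-shaped 20S core is built of outer rings of alpha subunits, which gate the entry, and inner rings of beta subunits, some of which cut the substrate. A 19S cap on the core recognises, deubiquitinates, unfolds and threads in the substrate, whereas activators of the Psme family open the gate without ubiquitin. In cells of blood origin and after interferon, catalytic beta subunits are exchanged for the immunoproteasome forms, which favour peptides for MHC class I.

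Expression was deposited as FPKM, the fragments assigned to a gene scaled by its length and by the size of the library. The library totals behind these values, recovered from the steps between them, were 14048202 to 15084729 reads. Of 10 mast cell and basophil markers 8 were measured, among them Ms4a2, Fcer1g and Fcer1a, whereas Tpsab1 and Mcpt8 were listed at 0. Their summed level was 2831 to 2965 FPKM in control and 2854 to 2925 FPKM with PIO. Of 23 markers of macrophages, neutrophils, T cells, B cells, fibroblasts and endothelium, 3 had a mean of at least 0.5 FPKM, namely Cd68, Cd3e and Pecam1. The groups did not overlap for the summed T cell list (1.14 to 1.24 FPKM in control, 0.560 to 0.949 FPKM with PIO), the fibroblast list (0.169 to 0.218 and 0.0244 to 0.143 FPKM) and the endothelial list (61.3 to 65.4 and 65.5 to 67.1 FPKM, nearly all Pecam1). Among single tested genes, all PIO values lay above all control values for 10.5% and below them for 8.09%. No fibroblast marker averaged 0.5 FPKM, and of the T cell markers only Cd3e did. The part of these 3 lists in the results below was not tested. Dcn, Cd3d and Cd8a were listed at 0 in every library.

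Of the 44 members, 42 averaged 0.5 FPKM or more and were tested. The other 2 are forms known from other tissues. Psma8, the testis alpha subunit, had 2 recovered reads in each control library and 4, 3 and 3 with PIO, around the floor of 3 reads that a listed 0 allows. Psmb11, the beta subunit of the thymic cortex, had 1 recovered read in PIO replicate 1 and none elsewhere. No fold is given for either. The tested members were abundant, with a median rank at the 94.0th percentile of the 10410 genes tested and 29 of 42 above 100 FPKM. Between 45 and 9979 recovered reads lay behind each value, Psmd10 having the fewest. Recovered reads and lengths are the smallest that fit the values of a gene, so the true ones may be whole multiples of them.

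No proteasome subunit gene passed the test of PIO against control. In limma with Benjamini-Hochberg adjustment over all 10410 genes, 0 of 42 members passed, against 4 genes (0.0384%) in the whole table, and the smallest adjusted p of a member was 0.332. Limma-voom on the recovered reads also called 0 members, against 0.0672% of all genes. At an unadjusted limma p under 0.05, 7 members stood out and all 7 were higher with PIO, where 12.5% of all genes stood out, with 6.36% higher and 6.15% lower. All PIO values lay above all control values for 7 members (10.5% of all genes), and for none were they all below (8.09%). Without regard to p, 36 of 42 members had a log2 fold change above 0, against 54% of all genes. The median log2 fold change was 0.053 over the members and 0.0094 over all genes, on the log2(FPKM + 0.5) scale. Over the 1794 tested genes at or above 50 FPKM, a level that most members exceeded, it was 0.027. The 95% intervals of 41 members stayed within 0.32 of 0 on that scale, and the group means of 40 members differed by at most 10%. In bulk RNA such as this, fewer cells that express a gene and less RNA per cell cannot be told apart. The plot of log2 fold changes by role shows these values, and the levels given below for single libraries follow the order of replicates 1 to 3.

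**Figure D1:**
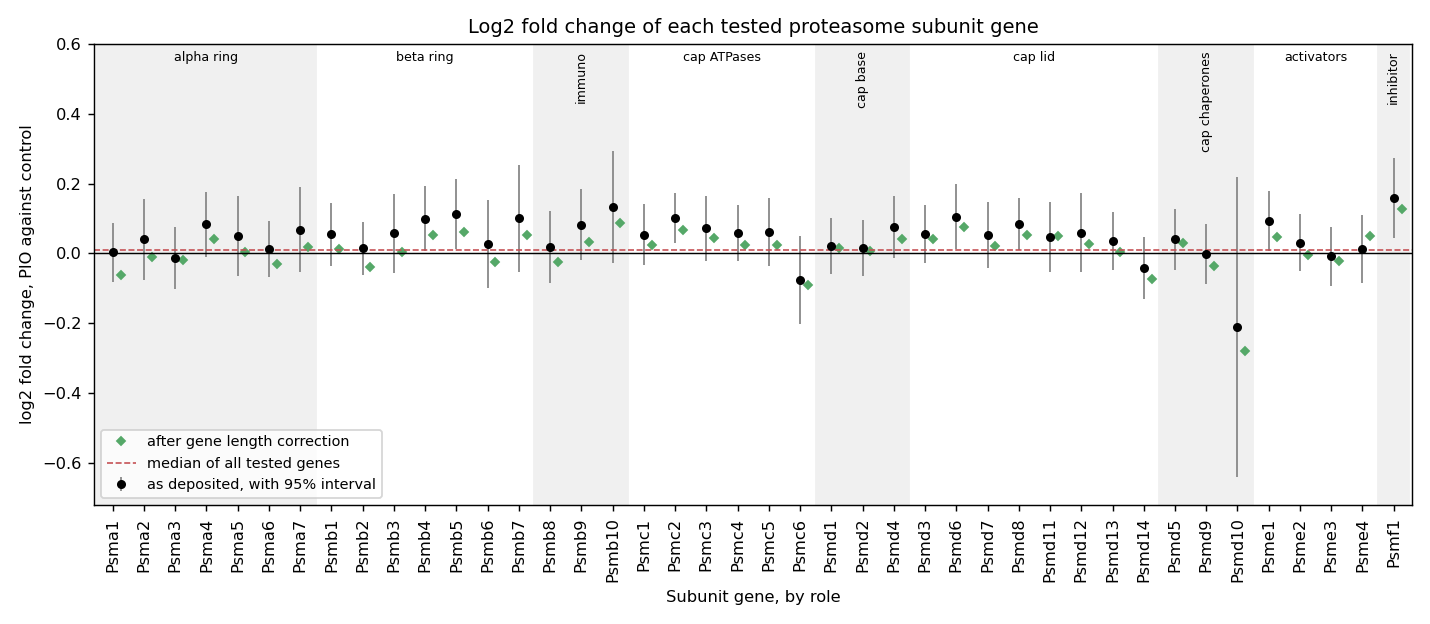
Log2 fold change of each tested subunit gene on the log2(FPKM + 0.5) scale, PIO against control, by role. Black points and bars give the limma estimate and its 95% interval (3 libraries per group), green diamonds the estimate after a correction for gene length, and the dashed line the median of all 10410 genes. Intervals of 7 genes lie above 0, no interval lies below 0, and no gene passed adjustment.

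The alpha ring was among the most abundant groups. Levels over all libraries ran from 87.1 FPKM for Psma3 to 300.02 FPKM for Psma7, both structural alpha subunits. Psma7 stood at 311, 294 and 274 FPKM (control) against 293, 319 and 309 FPKM (PIO). Control replicate 3 was the lowest and control replicate 1 the second highest, so the groups overlapped. Psma3 stood at 90.5, 87.7 and 84.4 FPKM (control) against 85.5, 89.1 and 85.7 FPKM (PIO), again with overlapping groups. Its FPKM rest on a recovered length of 3166 bases, against 587 to 1121 bases for the other alpha genes. The low level of Psma3 depends on that length. Of 7 alpha genes 6 were higher, 1 was lower and 0 were called (median log2 fold change 0.040). That direction turned without control replicate 3, where 3 of 7 were higher and the median was -0.0084. Psma4 had the largest difference of the ring, with a control mean of 148 ± 5.14 FPKM and a PIO mean of 157 ± 5.87 FPKM (SD, n = 3; difference 0.083 on the log2 scale, SE 0.041, limma adjusted p = 0.443). Psma1 stood at a control mean of 245 ± 3.68 FPKM and a PIO mean of 245 ± 9.20 FPKM (log2 fold change 0.0028, limma adjusted p = 0.983). Its recovered length, 587 bases, was next to the shortest of the tested members, but the true length may be a whole multiple of it.

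The beta ring held the most abundant member. Psmb4, a beta subunit without protease activity, stood at 502, 464 and 459 FPKM (control) against 500.0, 514 and 511 FPKM (PIO). The PIO libraries were close together, and control replicate 1 lay among them while the other controls lay lower. Its log2 fold change was 0.10 (SE 0.040, limma adjusted p = 0.379). The other beta subunits without activity, Psmb1, Psmb2 and Psmb3, had means of 150.3, 339 and 324 FPKM. All 7 beta genes had a positive log2 fold change, with a median of 0.058, a range of 0.015 to 0.11 and 0 called. Without control replicate 3 the median was 0.056 and 5 of 7 were higher.

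The catalytic beta genes were lower in level than Psmb2, Psmb3 and Psmb4. Psmb5 (GeneID 29425), which carries the chymotrypsin-like activity, stood at 110.2, 109.9 and 111 FPKM (control) against 112, 121 and 125 FPKM (PIO). The 3 controls were nearly equal and every PIO library was above them, PIO replicate 1 only slightly. The log2 fold change was 0.11 (95% interval 0.013 to 0.21, limma adjusted p = 0.371), and after the correction for gene length described below it was 0.062. Psmb6 (GeneID 29666), with the caspase-like activity, stood at 117, 106 and 101 FPKM (control) against 107, 108 and 113 FPKM (PIO). All 3 PIO values of Psmb6 lay within the range of the controls (log2 fold change 0.027, limma adjusted p = 0.854). Psmb7 (GeneID 85492), with the trypsin-like activity, stood at 165, 158 and 153 FPKM (control) against 189.9, 158 and 164 FPKM (PIO). PIO replicate 1 was apart from the rest, at 2593 recovered reads against 2164 to 2418 in the other libraries, and the remaining PIO values lay within the control range (log2 fold change 0.10, limma adjusted p = 0.550). Without PIO replicate 1 the log2 fold change of Psmb7 was 0.021.

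The immunoproteasome genes were well expressed without PIO. Psmb8 (GeneID 24968), the counterpart of Psmb5, stood at 224, 217 and 202 FPKM (control) against 216, 212 and 224 FPKM (PIO). Its groups overlapped (log2 fold change 0.019, limma adjusted p = 0.879). Psmb9 (GeneID 24967), the counterpart of Psmb6, stood at 149, 145 and 134 FPKM (control) against 154, 149 and 150.5 FPKM (PIO). Control replicate 3 was the lowest, and control replicate 1 lay between PIO values (log2 fold change 0.082, limma adjusted p = 0.474). Psmb10 (GeneID 291983), the counterpart of Psmb7, was far lower at 27.5, 27.3 and 23.2 FPKM (control) against 29.0, 29.2 and 27.2 FPKM (PIO). Here too control replicate 3 was the lowest library, and the log2 fold change of 0.13 (limma adjusted p = 0.463) became 0.054 when that library was left out. All 3 genes had a positive log2 fold change, with a median of 0.082 and 0 called. Without control replicate 3 the median, which was again the value of Psmb9, was 0.037 and 2 of 3 were higher.

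Psmb8 and Psmb9 were thus above their standard counterparts in every library and Psmb10 below its own. The Psmb8 share of the summed FPKM of Psmb5 and Psmb8 was 66.0% ± 1.31 in control and 64.5% ± 1.16 with PIO (SD, n = 3). For Psmb9 in its pair with Psmb6 the share was 57.0% ± 0.868 and 57.97% ± 0.838, and for Psmb10 in its pair with Psmb7 it was 14.1% ± 0.823 and 14.4% ± 1.198. The groups overlapped for each pair. The exact two-sided permutation test of 3 against 3 libraries, which cannot go below p = 0.1, gave p = 0.2, 0.2 and 0.8 in that order (0.3, 0.3 and 0.8 adjusted over the 3 pairs). These shares are of RNA per gene length and not of protein in assembled particles.

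**Figure D2:**
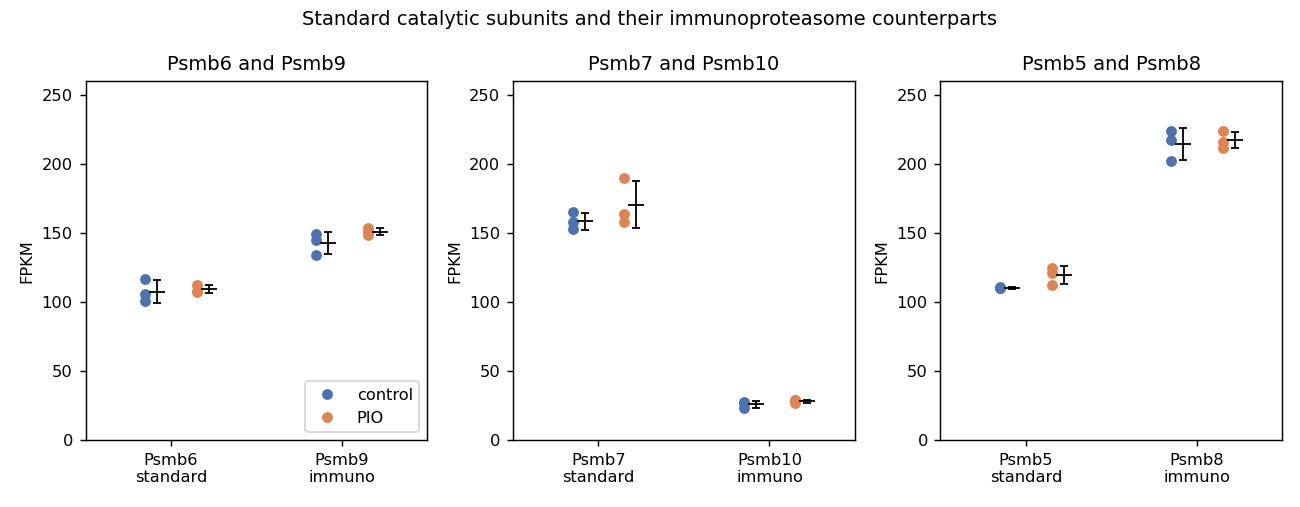
FPKM of the 3 standard catalytic subunit genes and their immunoproteasome counterparts. Points are single libraries, and bars give mean and SD of 3 libraries per group. Psmb8 and Psmb9 lie above Psmb5 and Psmb6 in both groups, whereas Psmb10, at 23.2 to 29.2 FPKM, lies far below Psmb7.

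The 250 bases before the annotated start are shown for 4 members because they hold letters known from regulators of these genes. Proteasome genes as a group are known to be induced through antioxidant response elements. The immunoproteasome genes, Psme1 and Psme2 are known to be induced through interferon response elements. The antioxidant core TGACNNNGC and the interferon core, GAAA and again GAAA with any 2 bases between, were searched on both strands of these windows. Windows could be matched for 39 of the 44 members (RefSeq, assembly GRCr8), and none of the sequences shown holds both cores. Capitals mark the matches, and each sequence reads 5′ to 3′ on the strand of the gene. Psmb5 (GRCr8 chr15:32047380-32047629, minus strand) and Psmb6 (GRCr8 chr10:55737638-55737887, plus strand) hold the antioxidant core, and Psmb10 (GRCr8 chr19:50743293-50743542, minus strand) and Psme2, an activator gene (GRCr8 chr15:33052752-33053001, minus strand), hold the interferon core.
Psmb5: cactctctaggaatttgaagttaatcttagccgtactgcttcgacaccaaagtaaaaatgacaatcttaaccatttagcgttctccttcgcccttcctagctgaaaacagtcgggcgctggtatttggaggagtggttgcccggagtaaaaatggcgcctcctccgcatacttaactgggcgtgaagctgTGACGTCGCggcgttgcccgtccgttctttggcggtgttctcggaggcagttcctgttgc
Psmb6: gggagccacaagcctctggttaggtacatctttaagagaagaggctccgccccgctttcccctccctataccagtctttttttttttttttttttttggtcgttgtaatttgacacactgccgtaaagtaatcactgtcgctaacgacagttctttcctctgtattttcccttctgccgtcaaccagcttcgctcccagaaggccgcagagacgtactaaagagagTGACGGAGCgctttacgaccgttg
Psmb10: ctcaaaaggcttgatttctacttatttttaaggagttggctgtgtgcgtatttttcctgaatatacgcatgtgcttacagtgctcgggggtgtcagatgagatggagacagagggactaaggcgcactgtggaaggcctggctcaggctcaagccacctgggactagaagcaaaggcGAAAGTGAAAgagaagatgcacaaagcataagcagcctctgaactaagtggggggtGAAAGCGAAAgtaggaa
Psme2: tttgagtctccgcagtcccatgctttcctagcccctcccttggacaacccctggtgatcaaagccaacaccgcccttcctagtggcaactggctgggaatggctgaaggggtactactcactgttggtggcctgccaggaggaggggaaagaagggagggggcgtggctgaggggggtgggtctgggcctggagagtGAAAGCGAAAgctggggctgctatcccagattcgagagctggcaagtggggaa
The antioxidant match begins 60 bases before the start in Psmb5 and 24 bases before it in Psmb6. Psmb10 holds 2 interferon matches, which begin 73 and 17 bases before the start, and the match of Psme2 begins 53 bases before it.

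The antioxidant core lay in 7 of 39 member windows (17.9%) and in 10.1% of the 33469 windows of the table. The 7 were those of Psma3, Psmb2, Psmb5, Psmb6, Psmd1, Psmd9 and Psme4. Their median log2 fold change was 0.015 (range -0.012 to 0.11), and that of the 31 tested members with a window but no match was 0.055. The interferon core lay in 5 of 39 (12.8%, against 3.41% of all windows), namely Psma4, Psmb3, Psmb10, Psmd7 and Psme2, with a median log2 fold change of 0.058 against 0.046 in the 33 without a match. Psmb7, Psmb8, Psmb9 and Psme1 held neither set of letters in this window. A match is a string of letters and was not tested as a binding site.

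The ATPases of the cap, encoded by Psmc1 to Psmc6, form the ring that unfolds the substrate. Their levels ran from 38.6 FPKM for Psmc6 to 213 FPKM for Psmc5. That is a 5.51-fold range of RNA per gene length, for subunits whose proteins are known to be present in equal numbers. The FPKM of Psmc6 rest on a recovered length of 2381 bases and those of Psmc5 on 1288 bases, so the range depends on these lengths. Recovered reads were 1237 to 1495 for Psmc6 and 3751 to 4184 for Psmc5. Psmc5 stood at 215, 212 and 197 FPKM (control) against 216, 223 and 212 FPKM (PIO), with overlapping groups. Psmc6 stood at 39.7, 36.8 and 42.5 FPKM (control) against 37.0, 38.6 and 37.1 FPKM (PIO). Control replicate 3 was the highest library of Psmc6, unlike most members, and the groups overlapped. Psmc6 was the single ATPase gene with a negative log2 fold change (-0.076, SE 0.055, limma adjusted p = 0.582). Psmc2 had the smallest p of all members and stood at 178, 177 and 182 FPKM (control) against 188, 194 and 195 FPKM (PIO). Every PIO library lay above every control, with a control mean of 179 ± 2.57 FPKM and a PIO mean of 192 ± 4.02 FPKM (SD, n = 3), a difference of 7.32%. The log2 fold change of Psmc2 was 0.10 (95% interval 0.029 to 0.17, limma adjusted p = 0.332), and after length correction it was 0.068. The 6 ATPase genes had a median of 0.060, 5 of them higher, and 0 were called.

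The remaining subunits of the base, Psmd1 and Psmd2, which are large scaffolds, and Psmd4, a receptor for ubiquitin, ran from 131 to 257 FPKM. Psmd4 stood at 262, 244 and 244 FPKM (control) against 259, 260.1 and 271 FPKM (PIO). Control replicate 1 lay within the PIO values and the other controls below them (log2 fold change 0.076, limma adjusted p = 0.453). Psmd1 stood at 131, 134 and 126 FPKM (control) against 132, 132 and 133 FPKM (PIO), with the PIO values inside the control range. Psmd2 differed as little, with a control mean of 220.1 ± 7.86 FPKM and a PIO mean of 222 ± 2.52 FPKM (SD, n = 3; difference 0.016 on the log2 scale, limma adjusted p = 0.872).

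The lid removes the ubiquitin chain, and 7 of its 8 genes had a positive log2 fold change (median 0.054, 0 called). Psmd3, a lid scaffold and its most abundant gene, stood at 153, 149.7 and 142 FPKM (control) against 153, 156 and 153 FPKM (PIO). The lowest PIO value of Psmd3, 152.80 FPKM, was barely above the highest control value, 152.79 FPKM (log2 fold change 0.056, limma adjusted p = 0.547). Psmd6, the least abundant, stood at 41.8, 41.0 and 40.6 FPKM (control) against 45.1, 42.4 and 45.5 FPKM (PIO), all PIO values being higher (log2 fold change 0.11, limma adjusted p = 0.375). Psmd8 stood at 103, 101 and 105 FPKM (control) against 109, 109 and 110.1 FPKM (PIO). Its groups did not overlap either, and its log2 fold change was 0.084 (95% interval 0.0095 to 0.16, limma adjusted p = 0.375). Psmd14, which encodes the deubiquitinase of the lid, was the single lid gene with a negative value. It stood at 96.0, 94.0 and 89.4 FPKM (control) against 92.7, 89.0 and 89.5 FPKM (PIO), and PIO replicates 1 and 3 lay within the control range (log2 fold change -0.042, limma adjusted p = 0.657). Psmd7, the partner of Psmd14, had a control mean of 118 ± 4.58 FPKM and a PIO mean of 123 ± 3.88 FPKM (SD, n = 3; difference 0.052 on the log2 scale). The other lid genes, Psmd11, Psmd12 and Psmd13, had log2 fold changes of 0.036 to 0.059 and overlapping groups.

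Psmd5, Psmd9 and Psmd10 carry cap symbols but encode chaperones that help assemble the base and leave the finished particle. They were at lower levels than most cap genes, from 8.21 FPKM for Psmd10 to 46.2 FPKM for Psmd9. Psmd10 stood at 11.6, 7.22 and 7.79 FPKM (control) against 7.52, 9.09 and 6.03 FPKM (PIO). Control replicate 1 was the highest, and the other libraries were spread widely on 45 to 69 recovered reads each. The true reads may be a whole multiple of these. The log2 fold change of Psmd10 had the widest interval of the members (-0.21, 95% interval -0.64 to 0.22, limma adjusted p = 0.653), and without control replicate 1 it was -0.0093. Psmd9 stood at 47.1, 46.7 and 44.8 FPKM (control) against 45.7, 46.0 and 46.8 FPKM (PIO), all PIO values within the control range (log2 fold change -0.0014). Psmd5 had a control mean of 37.6 ± 0.635 FPKM and a PIO mean of 38.7 ± 0.911 FPKM (SD, n = 3; difference 0.040 on the log2 scale).

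Among the activators, Psme1 and Psme2 form a cytosolic ring that is known to go with the immunoproteasome, Psme3 forms the nuclear ring, and Psme4 is a large single-chain activator. Psme1 stood at 123, 119 and 116 FPKM (control) against 126, 132 and 124 FPKM (PIO). The PIO values of Psme1 were all higher than the controls (log2 fold change 0.093, 95% interval 0.0073 to 0.18, limma adjusted p = 0.379). Psme2, whose promoter is printed above, was lower in level than its partner, with a control mean of 52.0 ± 0.734 FPKM and a PIO mean of 53.1 ± 1.19 FPKM (SD, n = 3; difference 0.030 on the log2 scale). Psme3 had a control mean of 118 ± 2.84 FPKM and a PIO mean of 118 ± 3.73 FPKM (log2 fold change -0.0083). Psme4, the longest member by recovered length at 7366 bases, stood at 32.7, 33.6 and 33.8 FPKM (control) against 35.1, 33.2 and 32.7 FPKM (PIO). Its groups overlapped (log2 fold change 0.013, limma adjusted p = 0.912). The 4 activator genes had a median log2 fold change of 0.022, with 3 higher and 0 called.

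Psmf1 encodes PI31, first described as an inhibitor of the core. It stood at 19.1, 17.9 and 17.6 FPKM (control) against 19.7, 20.5 and 20.9 FPKM (PIO), and every PIO library was above every control. With a difference of 11.9% it had the largest positive log2 fold change of the members (0.16, SE 0.050, 95% interval 0.043 to 0.27), which did not pass (limma adjusted p = 0.336). The value was 0.13 after length correction and 0.13 under TPM scaling.

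**Figure D3:**
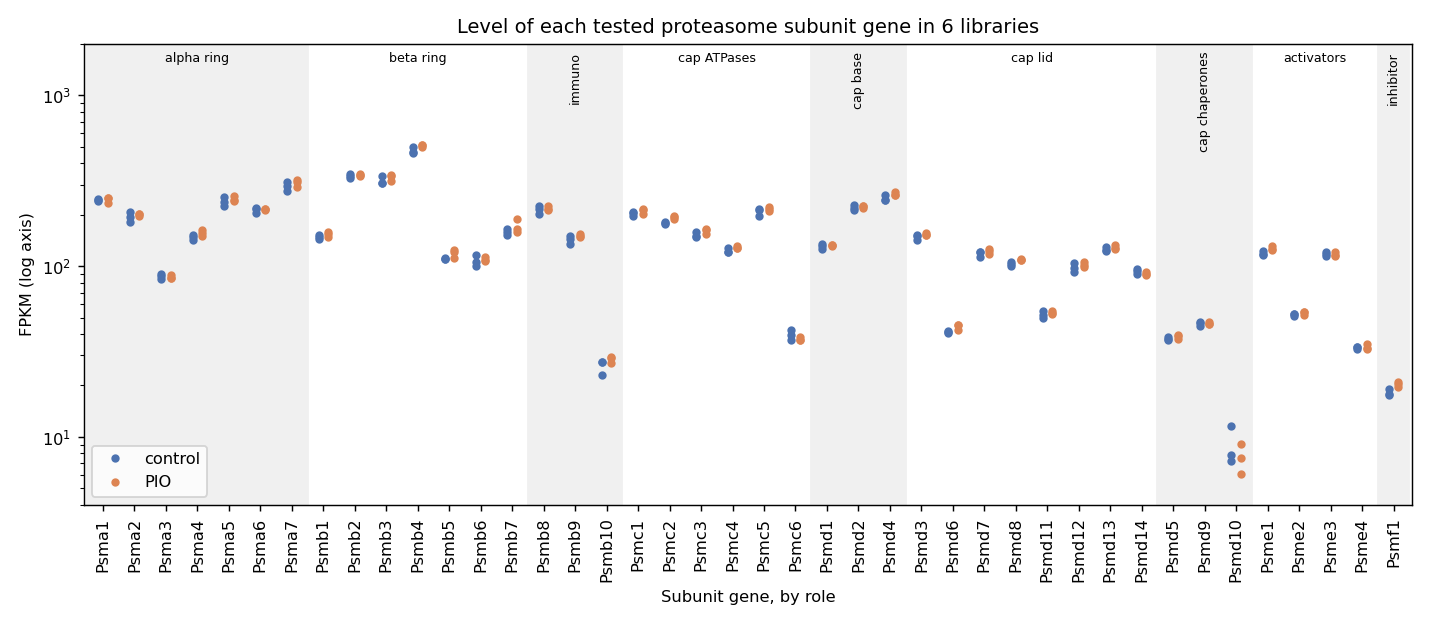
FPKM (log axis) of the 42 tested subunit genes in each of the 6 libraries, by role, control in blue and PIO in orange. Levels run from 8.21 FPKM for Psmd10 to 492 FPKM for Psmb4, and the distance between genes is far larger than that between groups.

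Side by side, the 14 core genes had a median log2 fold change of 0.053 and the 17 genes of the cap, without its chaperones, 0.056. Both moved with single controls: without control replicate 3 the medians were 0.013 for the core (8 of 14 higher) and 0.025 for the cap (13 of 17 higher), and without control replicate 1 they were 0.093 and 0.078. For the immunoproteasome genes the median without control replicate 1 was 0.12, and that of the activators was 0.0090 when PIO replicate 1 and 0.036 when PIO replicate 2 was left out. The summed FPKM of the core was 3074 ± 130 in control and 3190 ± 16.4 with PIO (SD, n = 3), that of the cap 2286 ± 58.8 and 2370.2 ± 24.9. For the immunoproteasome genes it was 383 ± 21.7 and 397 ± 5.97, and for the activators 323 ± 5.86 and 332 ± 6.68. In each of these 4 sums control replicate 1 lay above at least 1 PIO library. All members together held 1.24% ± 0.0313 of the library FPKM in control and 1.25% ± 0.0103 with PIO. The differences between roles were not tested.

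Gene length moved with the fold changes in this experiment. Lengths here are the recovered ones, which for some genes may be a fraction of the true length. Among tested genes under 1000 bases 73.9% had a log2 fold change above 0 (median 0.064, 911 genes), and from 3000 bases up 42.6% did (median -0.018, 4821 genes). Members were short, with a median length of 1343.5 bases against 2790.5 for all genes, and 25 of 42 were under 1500 bases. The 12 members under 1000 bases had a median log2 fold change of 0.063, beside 0.064 for all genes of that size. The 13 members of 1000 to 1500 bases had 0.058, beside 0.040. The 13 of 1500 to 3000 bases had 0.052, beside 0.019. The 4 longer ones had 0.018, beside -0.018. When each library's trend with length was subtracted, the median of the members was 0.023 and 29 of 42 were higher (50.8% of all genes). Under TPM scaling it was 0.024 with 28 higher (42.6% of all genes). After length correction the core median was 0.0048, with 8 of 14 higher, and that of the alpha ring -0.011. The cap had 0.025 with 15 of 17 higher, the immunoproteasome genes 0.034 and the activators 0.022.

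Single control libraries also moved with the result. Of the 42 members 33 were highest among the controls in replicate 1 and 31 were lowest in replicate 3, against 30.03% and 36.5% of all tested genes. The median deviation of the members from their own means was 0.022 in control replicate 1, -0.029 in replicate 2 and -0.066 in replicate 3, and 0.018, 0.036 and 0.018 in PIO replicates 1 to 3. After length correction control replicate 3 remained the lowest at -0.041, with 28 members lowest there among the controls. Without control replicate 3 the median log2 fold change of the members was 0.024, with 28 of 42 higher (53.7% of all genes). Without control replicate 1 it was 0.081, with 38 higher. The part of gene length and of these libraries in the one-sided direction was not tested beyond these values.

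**Figure D4:**
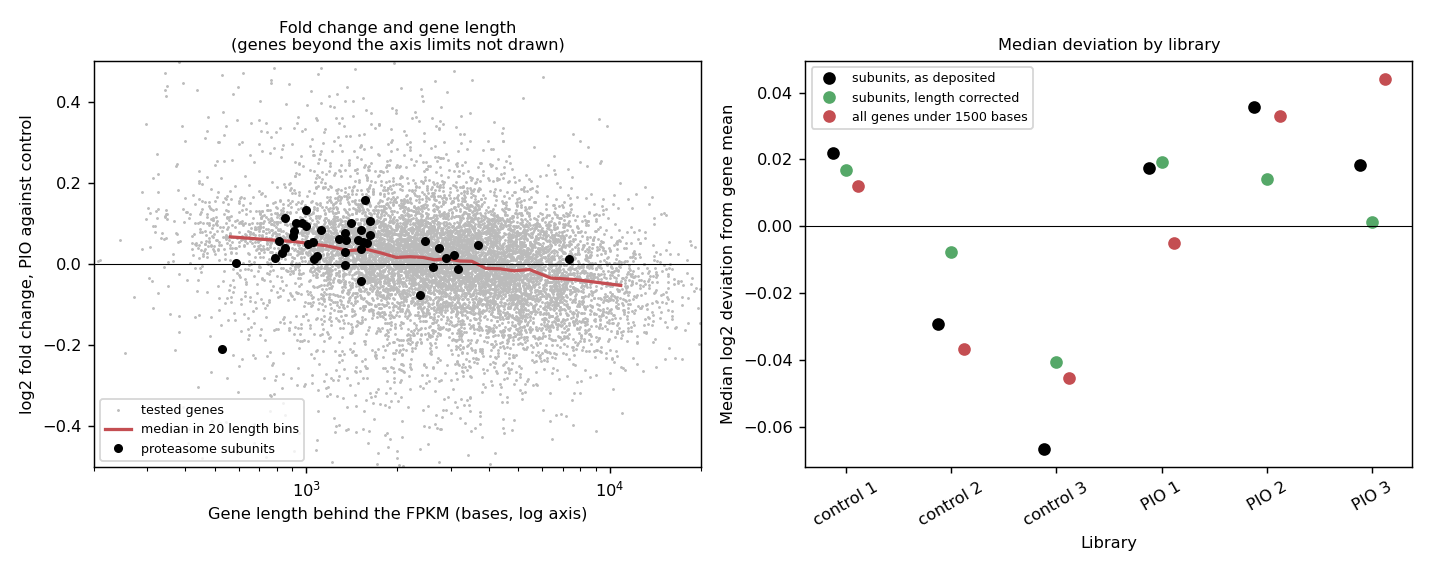
Left, log2 fold change against the gene length behind the FPKM, as recovered (log axis). All tested genes are in grey, their median in length bins is a line and the 42 subunits are in black. Right, median log2 deviation from each gene's own mean in each library, for the subunits as deposited, the subunits after length correction and all genes under 1500 bases. The line falls with length, and control replicate 3 is the lowest library for all 3 sets.

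Several members have a near copy elsewhere in the table that can take a share of their reads. LOC100360846, annotated as similar to Psmb6, stood at 12.7 ± 1.23 FPKM in control and 13.3 ± 2.88 with PIO (SD, n = 3). LOC103690099, similar to Psmb8, stood at 18.0 ± 0.652 and 17.1 ± 1.45 FPKM, and LOC102552889, similar to Psmd12, at 1.41 ± 0.495 and 1.63 ± 0.196 FPKM. With the copy added, the log2 difference between group means was 0.030 for Psmb6, 0.011 for Psmb8 and 0.061 for Psmd12, beside log2 fold changes of 0.027, 0.019 and 0.059 without it. The levels of these 3 genes are uncertain by that share.

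Genes that build or serve the proteasome under other symbols also gave no call. Of 5 tested assembly factors 4 were higher and 0 called (median 0.091). Psmg3, a chaperone of core assembly, stood at 30.04, 30.04 and 31.0 FPKM (control) against 34.8, 35.9 and 35.3 FPKM (PIO). Its groups were well apart, with a log2 fold change of 0.22 (SE 0.037, limma adjusted p = 0.210). Pomp, the maturation factor of the core, stood at 10.6, 9.72 and 13.2 FPKM (control) against 14.7, 14.3 and 38.0 FPKM (PIO). The log2 fold change of 0.83 (limma adjusted p = 0.379) had a wide error (SE 0.33), since PIO replicate 3 was far above the rest. Reads can be shared with LOC100911238, a near copy at 19.2 ± 2.15 and 27.3 ± 7.37 FPKM, and the summed level of both was 30.4 ± 2.41 FPKM in control and 49.6 ± 11.3 with PIO (SD, n = 3), with no overlap of the groups. Psmg4, another such chaperone, differed by 0.091 on the log2 scale (limma adjusted p = 0.652).

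Of 6 tested associated subunits and deubiquitinases, 3 were higher and 3 lower. They were led by the ligase gene Ube3c (-0.11, limma adjusted p = 0.416), the small cap subunit gene Shfm1 (0.080) and Txnl1, a thioredoxin-like cap partner (0.044). Of 6 ubiquitin and E1 genes 2 were higher and 4 lower (median -0.017). Rps27a, which encodes ubiquitin fused to a ribosomal protein, stood at 663, 747 and 454 FPKM (control) against 816, 901 and 809.9 FPKM (PIO). Control replicate 3 was the lowest by far (log2 fold change 0.47, limma adjusted p = 0.340). The E1 gene Uba6 (-0.11) and the ubiquitin gene Ubb (-0.028) were on the negative side.

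Of 9 shuttle and extraction factors 4 were higher and 5 lower (median -0.012), with the smallest p for the shuttle genes Ubqln2 (-0.19), Rad23b (-0.052) and Ubqln1 (-0.032). Of 7 tested regulators of proteasome gene transcription 4 were higher and 3 lower (median 0.0084). Nfe2l1, the factor known to raise proteasome genes when proteasomes fail, had a control mean of 23.7 ± 1.92 FPKM and a PIO mean of 22.0 ± 0.526 FPKM (SD, n = 3; difference -0.10 on the log2 scale, limma adjusted p = 0.506). Its relative Nfe2l2 had -0.058 and Keap1, which holds Nfe2l2 back, 0.12. No gene of these lists passed, against 0.0384% of all genes.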

How the data were processed

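Stranded mRNA libraries were sequenced from TRIzol-extracted RNA, per the labels' protocols. The authors deposited FPKM per gene and library. HISAT2 2.2.1.0, Cufflinks, HTSeq and DESeq are among the tools in the submitters' processing notes. Which of them made the values is not stated there. The same notes name a human build, GRCh38, although identifiers are rat, so no coordinates of the files are printed. FPKM of a gene were whole multiples of 1 read, so reads and gene lengths were recovered for 15427 of the 15429 genes above 0, and they gave the depth. For each gene the shortest length that made every value a whole number of reads was taken. By that choice 99.99% of values above 0 lay within 0.01 of a whole read, which does not show that a length is the true one. True lengths and reads may be whole multiples of those recovered. These reads carry no molecular identifiers, so floors cover counting error only.

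Limma 3.58.1 (R 4.3.3) compared log2(FPKM + 0.5) between the groups, with a variance trend, for genes averaging 0.5 FPKM or more. Tests were two-sided, and p-values were adjusted over all genes by Benjamini-Hochberg (threshold 0.05). Fold changes of low genes are understated on that scale. Length correction subtracted each library's lowess trend (span 0.3) with the log2 of the recovered length, relative to the mean over libraries. TPM scaling gave every library the same FPKM sum. The code was tested on simulated data. Values for every library are given for the catalytic and immunoproteasome genes, the 4 members of smallest p in each direction, the highest and lowest member of each role and members under the filter, and up to 3 genes of smallest p in each other list are named. The members, lists, rules and alternatives were chosen with earlier results of these data known. Tables and figures were made with Python 3.11.15, pandas 2.3.3, scipy 1.17.1 and matplotlib 3.10.9.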

Additional observations from a re-analysis of the deposited data

How the results depend on the processing

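In all 16 alternatives 0 subunits were called, with the smallest limma adjusted p of a member between 0.172 and 0.680. The number of genes called overall was 4, and it was 1 without a filter, 7 in limma-voom on recovered reads, 2 without a variance trend and 2 to 4 with 1 library left out. Replicate numbers are shared between the groups, but same-numbered libraries did not deviate together (correlations -0.07, 0.03 and 0.08). With the replicate block 3 genes and 0 subunits were called (smallest adjusted p of a member 0.397). Of 42 members 29 kept the sign of their log2 fold change in every alternative. After length correction the core median was 0.0048, and Psma1 (-0.062), Psma2 (-0.011), Psma6 (-0.030), Psmb2 (-0.039), Psmb6 (-0.025), Psmb8 (-0.024) and Psme2 (-0.0043) turned negative. Under TPM scaling the activator median was -0.0070, and Psma1 (-0.026), Psma6 (-0.016), Psmb2 (-0.014), Psmb6 (-0.0021), Psmb8 (-0.010), Psmd1 (-0.0064), Psmd2 (-0.013) and Psme4 (-0.016) turned negative, as did Psma1 (-0.0035) under median-of-ratios scaling. With 1 library left out in turn, signs changed within the ranges of Psma1 (-0.014 to 0.034), Psma2 (-0.0095 to 0.091), Psma3 (-0.038 to 0.012), Psma6 (-0.016 to 0.033), Psmb2 (-0.0031 to 0.036), Psmb6 (-0.020 to 0.087), Psmb8 (-0.024 to 0.051), Psmd1 (-0.0043 to 0.043), Psmd2 (-0.0086 to 0.043), Psmd9 (-0.024 to 0.013), Psme3 (-0.033 to 0.011) and Psme4 (-0.017 to 0.033). The cause of these turns was not tested. Pseudocounts of 0.1 and 1 and a minimum mean of 5 FPKM turned no sign. By recovered reads, depth limited Psmd10, Psma8 and Psmb11 most.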

Other observations

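The peptides that immunoproteasomes cut are carried to MHC class I by other genes, whose levels differed widely. B2m, the light chain of MHC class I, had a control mean of 459 ± 2.86 FPKM and a PIO mean of 473 ± 5.18 FPKM (SD, n = 3), and Tap1, a subunit of the peptide transporter that lies beside Psmb9 in the genome, a control mean of 76.9 ± 3.02 FPKM and a PIO mean of 81.4 ± 1.45 FPKM. These 2 genes fall outside the naming rule; they were picked with their values in view. Of 9 tested genes of antigen processing 7 were higher, 2 lower and 0 called (median log2 fold change 0.045, beside 0.0094 for all genes, and 0.021 after length correction). Canx, the calnexin gene, stood at 200.03, 209 and 205 FPKM (control) against 193, 185 and 179.6 FPKM (PIO), every PIO value being lower (log2 fold change -0.14, limma adjusted p = 0.304). Tap2, the partner of Tap1, had a control mean of 2.42 ± 0.0672 FPKM and a PIO mean of 3.00 ± 0.528 FPKM (0.25, limma adjusted p = 0.411). Its PIO libraries stood at 3.61, 2.65 and 2.75 FPKM, all above the controls, with PIO replicate 1 apart from the rest. Calr, the calreticulin gene, had a control mean of 1689 ± 25.3 FPKM and a PIO mean of 1787 ± 64.7 FPKM (0.081).

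Of 7 genes of the interferon response, known regulators of the immunoproteasome genes, 6 were higher, 1 lower and 0 called (median log2 fold change 0.13, and 0.12 after length correction). Irf7 stood at 2.09, 1.69 and 1.97 FPKM (control) against 2.76, 2.88 and 2.62 FPKM (PIO). Its groups did not overlap, and the log2 fold change was 0.43 (SE 0.095, limma adjusted p = 0.270). Stat2 had a control mean of 23.1 ± 0.666 FPKM and a PIO mean of 25.4 ± 0.336 FPKM (SD, n = 3; 0.14, limma adjusted p = 0.321), and Irf1 a control mean of 13.5 ± 0.998 FPKM and a PIO mean of 15.6 ± 0.801 FPKM (0.20, limma adjusted p = 0.340). At an unadjusted limma p under 0.05 these 3 of 7 stood out, where 12.5% of all genes did.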
